A study of Mus musculus with 16 samples.

Results

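Ltf, Ngp, Camp, Lcn2, Chil3, Cd177 and Itgb2l are genes whose products are carried by, or made together with, the secondary (specific) granules of neutrophils. They were taken by symbol from a table of 10296 genes measured in neutrophils of the lung, spleen and blood of mice. All 7 were listed, and all 7 passed the limit on low values that left 8299 genes to be tested.

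The neutrophils were CD45-, CD11b- and Ly6G-stained, DAPI-checked cells obtained by flow sorting from C57BL/6 mice, and their RNA was amplified as complementary DNA for sequencing. The groups were GF lung (3 libraries), SPF lung (3), GF spleen (3), SPF spleen (3), GF blood (2) and SPF blood (2), 16 libraries in all, where GF mice are germ-free and SPF mice are specific pathogen free. The labels name no treatment, engineered allele, age or sex, and every group had the same strain and the same sort. Nothing in them tells whether replicate libraries are different animals, so each p-value measures only how far these libraries scatter, and that scatter may be technical.

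Neutrophil granules are made in sequence while the cell matures in the marrow. Azurophil granule proteins are transcribed first, at the promyelocyte stage. Secondary granule proteins follow at the myelocyte and metamyelocyte stages under the transcription factor C/EBP epsilon, and the gelatinase granule proteins come last. A mature neutrophil in the circulation carries the finished proteins while the transcripts of the secondary granule genes have largely been switched off, so these messages are commonly used to tell younger from older neutrophils.

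In GRCm38 (GENCODE M21) 3 of the genes lie within 1.195 megabases of chromosome 9. Camp (ENSMUSG00000038357) is at chr9:109847379-109849617 on the minus strand, Ngp (ENSMUSG00000032484) at chr9:110419747-110423012 on the plus strand and Ltf (ENSMUSG00000032496) at chr9:111019271-111042767 on the plus strand. The other genes are dispersed. Lcn2 (ENSMUSG00000026822) is at chr2:32384633-32388252, Chil3 (ENSMUSG00000040809) at chr3:106147554-106167564, Cd177 (ENSMUSG00000052212) at chr7:24743983-24760311 and Itgb2l (ENSMUSG00000000157) at chr16:96422288-96443619, all on the minus strand. All are protein coding, with 4 to 17 exons in the transcript used for lengths.

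The promoters of the 3 genes on chromosome 9 are shown because these genes had the largest tissue differences and moved together from library to library. Each is a window of 300 bases, from 250 before to 50 after the RefSeq start in GRCm38.p6, read on the strand of the gene, at chr9:111019042-111019341 for Ltf, chr9:110419558-110419857 for Ngp and chr9:109849407-109849706 for Camp. Capitals mark the letters TTNNGNAA, a C/EBP core searched on both strands.
Ltf: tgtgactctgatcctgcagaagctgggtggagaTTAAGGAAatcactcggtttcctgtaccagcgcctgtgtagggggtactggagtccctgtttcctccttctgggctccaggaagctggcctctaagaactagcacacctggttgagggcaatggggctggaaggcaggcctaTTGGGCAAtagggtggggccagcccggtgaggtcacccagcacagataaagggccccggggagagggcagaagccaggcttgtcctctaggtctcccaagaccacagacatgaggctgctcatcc
Ngp: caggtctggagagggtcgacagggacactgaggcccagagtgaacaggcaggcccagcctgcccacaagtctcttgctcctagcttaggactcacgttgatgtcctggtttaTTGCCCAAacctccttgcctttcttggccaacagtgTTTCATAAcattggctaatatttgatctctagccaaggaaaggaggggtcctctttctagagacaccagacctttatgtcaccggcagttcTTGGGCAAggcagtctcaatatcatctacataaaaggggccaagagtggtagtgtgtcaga
Camp: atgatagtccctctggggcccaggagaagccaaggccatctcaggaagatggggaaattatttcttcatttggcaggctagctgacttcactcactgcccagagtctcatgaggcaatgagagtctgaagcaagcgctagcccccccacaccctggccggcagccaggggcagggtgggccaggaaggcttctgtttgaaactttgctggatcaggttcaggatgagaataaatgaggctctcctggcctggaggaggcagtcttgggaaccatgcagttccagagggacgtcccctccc

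By that search Ltf held TTAAGGAA starting 217 bases and TTGGGCAA starting 75 bases before the start. Ngp held 3 matches, and its last, again TTGGGCAA, began 11 bases before the start. Camp held none. Of the 7 promoters 6 had a match, while 40.7% of 32851 mouse promoters of the same length had one, so a match is common, and it describes the letters of the window only. For Ltf, Ngp and Camp the RefSeq start lay inside the GENCODE gene coordinates given above. Positions before the start therefore hold for the RefSeq start only, and some of them fall within the gene as GENCODE places it.

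Neutrophil identity and depth were checked first. All 8 neutrophil markers were detected in every tissue, with summed normalised counts (deposited values, scaled between libraries by the authors, less the value at 0 reads) of 29999 to 51761 in lung, 34151 to 71383 in spleen and 50211 to 89194 in blood. Reads recovered per library ranged from 504208 to 1147991 in lung, from 104213 to 640596 in spleen and from 132798 to 3033941 in blood, and 5 libraries (GF blood replicate 3, GF spleen replicates 1 and 4, SPF spleen replicates 1 and 4) held under 250000. GF spleen replicate 1 stood apart from the other spleen libraries, with a summed erythroid and platelet signal of 21992 against 42.0 to 107 in those 5, and it was the highest of the 16 libraries for every one of the 7 genes. All 4 blood libraries carried the same signal, at 44267 to 99466, against 47.8 to 2079 in lung.

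The lung and spleen libraries were separated at all 7 genes. Every gene was lower in lung neutrophils than in spleen neutrophils when GF and SPF mice were averaged, by 1.54 to 5.32 on the log2(value + 1) scale used for all differences here, and the highest lung library lay below the lowest spleen library for each. Among all genes tested 17.3% were called and 4.75% were called lower, that is with an adjusted p under 0.05 in limma, and 1.74% had every lung library below every spleen library. Of the 8299 differences, ordered from the most negative, those of Ltf, Ngp and Camp took places 1, 2 and 3, Chil3 place 5 and Itgb2l place 6. The members' median difference was -3.55 and that of all genes 0.09. In sorted bulk samples a smaller share of cells with these transcripts and less transcript in each cell cannot be told apart.

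**Figure D1:**
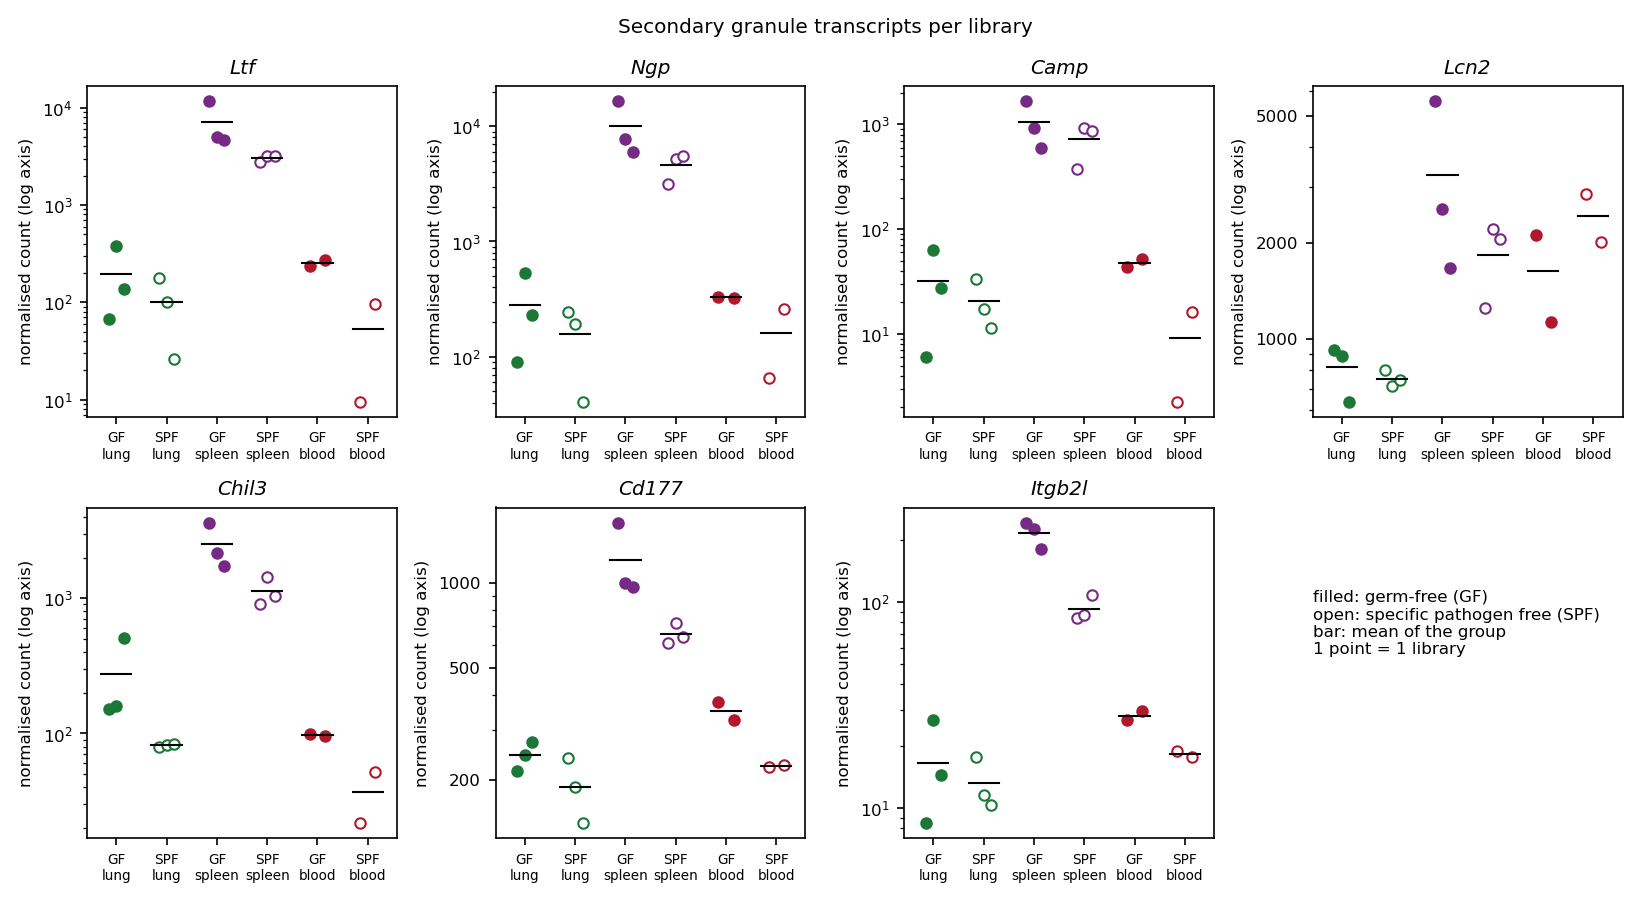
Normalised counts of the 7 genes in every library on log axes, with GF libraries filled, SPF libraries open and the mean of each group as a bar. For each gene all 6 spleen libraries lie above all 6 lung libraries, and for all but Lcn2 above all 4 blood libraries.

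Ltf encodes lactoferrin, the iron-binding protein that serves as the standard marker of secondary granules. Its normalised counts were 67.6, 377 and 138 in GF lung and 177, 101 and 26.0 in SPF lung, against 11698, 4982 and 4631 in GF spleen and 2752, 3183 and 3168 in SPF spleen. In blood they were 238 and 274 in GF mice and 9.48 and 96.8 in SPF mice. The lowest spleen library was 7.30-fold above the highest lung library and 10.0-fold above the highest blood library. The lung minus spleen difference was -5.32 (SE 0.65, 95% interval -6.77 to -3.87, adjusted p = 0.000162), and the spleen minus blood difference was 5.60 (SE 0.73, adjusted p = 0.00191). Its smallest count was 21 reads, in SPF blood replicate 3, a library of 2870559 reads, while SPF spleen replicate 1 gave 361 reads at a depth of 104213.

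Ngp, neutrophilic granule protein, is a cathelicidin- and cystatin-related protein of the same granules. It measured 90.5, 528 and 231 in GF lung and 242, 192 and 40.6 in SPF lung, against 16566, 7800 and 5927 in GF spleen and 3156, 5211 and 5473 in SPF spleen. In blood it was 329 and 326 in GF mice and 65.9 and 258 in SPF mice. The libraries ranked much as for Ltf, with GF lung replicate 3 highest and SPF lung replicate 3 lowest in the lung. The difference was -5.25 for lung minus spleen (SE 0.58, adjusted p = 7.09e-05) and 4.94 for spleen minus blood (SE 0.65, adjusted p = 0.00201).

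Camp encodes the precursor of the antimicrobial peptide cathelicidin. Its levels were 6.04, 62.8 and 27.5 in GF lung and 33.5, 17.5 and 11.5 in SPF lung, against 1669, 921 and 601 in GF spleen and 373, 929 and 870 in SPF spleen. Blood had 43.5 and 51.9 in GF mice and 2.26 and 16.1 in SPF mice. Camp had the same tissue order as Ltf at a lower level, and its weakest libraries, GF lung replicate 2 and SPF blood replicate 3, held 5 reads each. The lung minus spleen difference was -5.18 (SE 0.58, adjusted p = 6.43e-05) and the spleen minus blood difference 5.36 (SE 0.65, adjusted p = 0.00114).

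Lcn2 encodes lipocalin 2, which withholds iron from bacteria by binding their siderophores and is also induced outside the marrow in inflammation. It measured 927, 888 and 636 in GF lung and 802, 711 and 745 in SPF lung, against 5573, 2563 and 1670 in GF spleen and 1250, 2213 and 2055 in SPF spleen. Blood held 2125 and 1134 in GF mice and 2840 and 2017 in SPF mice. The blood libraries of Lcn2 overlapped its spleen libraries, which was so for no other member, and its lung libraries were below both. The lung minus spleen difference was -1.54 (SE 0.28, adjusted p = 0.00144), the lung minus blood difference -1.31 (SE 0.31, adjusted p = 0.00748), and the spleen minus blood difference 0.23 (95% interval -0.44 to 0.90, adjusted p = 0.7), which did not pass.

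Chil3 encodes the secreted chitinase-like protein Ym1, made by neutrophil precursors and by alternatively activated macrophages. Its levels were 152, 159 and 509 in GF lung and 78.8, 81.6 and 84.3 in SPF lung, against 3632, 2153 and 1736 in GF spleen and 899, 1436 and 1039 in SPF spleen. Blood had 98.7 and 96.3 in GF mice and 21.7 and 52.1 in SPF mice. Within each tissue every GF library was above every SPF library, as for 8.05% of all genes in lung, 6.04% in spleen and 26.3% in blood. Within each status every lung library was above every blood library, as for 26.2% of all genes in GF mice and 31.3% in SPF mice. The difference was -3.55 for lung minus spleen (SE 0.30, adjusted p = 2.48e-07) and 4.78 for spleen minus blood (SE 0.33, adjusted p = 3.91e-07). Chil3 has a near-identical neighbour, Chil4, that was not analysed here, and the counting could share their reads, so its values are uncertain to that extent.

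Cd177 encodes a glycolipid-anchored surface protein that neutrophils store in secondary granules. It measured 215, 246 and 274 in GF lung and 238, 189 and 141 in SPF lung, against 1633, 999.6 and 966 in GF spleen and 609.8, 718 and 644 in SPF spleen. Blood had 377 and 326 in GF mice and 222 and 227 in SPF mice. The replicates of Cd177 were close, and its difference of -2.04 for lung minus spleen had the smallest standard error of the 7 genes (SE 0.16, adjusted p = 1.77e-11). Spleen minus blood was 1.63 (SE 0.18, adjusted p = 2.75e-07).

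Itgb2l encodes an integrin beta chain related to the neutrophil integrin subunit CD18. It had the lowest mean of the 7 genes in each tissue, although Camp was below it in GF lung replicate 2 and in both SPF blood libraries and Ltf in SPF blood replicate 3. It measured 8.45, 26.8 and 14.5 in GF lung and 17.7, 11.7 and 10.4 in SPF lung, against 243, 227 and 180.2 in GF spleen and 83.8, 86.4 and 108 in SPF spleen. Blood had 26.7 and 29.6 in GF mice and 18.97 and 17.6 in SPF mice. All 6 spleen libraries stood clear of the others although GF blood replicate 3 rested on only 4 reads and SPF spleen replicate 1 on 11. The difference was -3.21 for lung minus spleen (SE 0.27, adjusted p = 7.08e-11) and 2.56 for spleen minus blood (SE 0.30, adjusted p = 7.84e-07).

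Spleen against blood gave the same separation for 6 of the 7 genes, all but Lcn2. These 6 were called higher in spleen with GF and SPF mice averaged, where 2.61% of all genes were called higher, and their 6 spleen libraries lay above all 4 blood libraries, as for 1.49% of all genes. Without the 5 libraries under 250000 reads Ltf (5.50, adjusted p = 0.122), Ngp (4.93, adjusted p = 0.113) and Camp (5.64, adjusted p = 0.074) no longer passed, at nearly the same differences, while Chil3, Cd177 and Itgb2l still did. Ltf, Camp, Ngp and Chil3, in this order, had the most positive differences of the 8299. This comparison uses the same spleen libraries as lung minus spleen, so the results of both rest in part on one set of libraries.

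Lung and blood differed far less. With GF and SPF mice averaged 2 of the 7 genes were called, against 24.6% of all genes, and they went in opposite directions. Chil3 was higher in lung by 1.23 (SE 0.33, adjusted p = 0.0133) and Lcn2 lower. The call of Chil3 was lost without SPF blood replicate 3 (0.93, adjusted p = 0.0758) and without the 5 libraries under 250000 reads (1.24, adjusted p = 0.103). For Ltf (0.28, 95% interval -1.35 to 1.90), Ngp (-0.31, -1.76 to 1.14) and Camp (0.18, -1.26 to 1.62) the intervals were wide enough to hold several-fold differences either way. The signs of Ltf and Camp turned without SPF blood replicate 3 (-0.52 and -0.40), GF lung replicate 3 or SPF lung replicate 1, and that of Ngp without SPF blood replicate 4, GF lung replicate 2 or SPF lung replicate 3. Cd177 (-0.40, adjusted p = 0.0988) and Itgb2l (-0.66, adjusted p = 0.109) did not pass, and after rescaling the libraries by trimmed means (TMM) both did (-0.57, adjusted p = 0.0215, and -0.82, adjusted p = 0.0455).

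**Figure D2:**
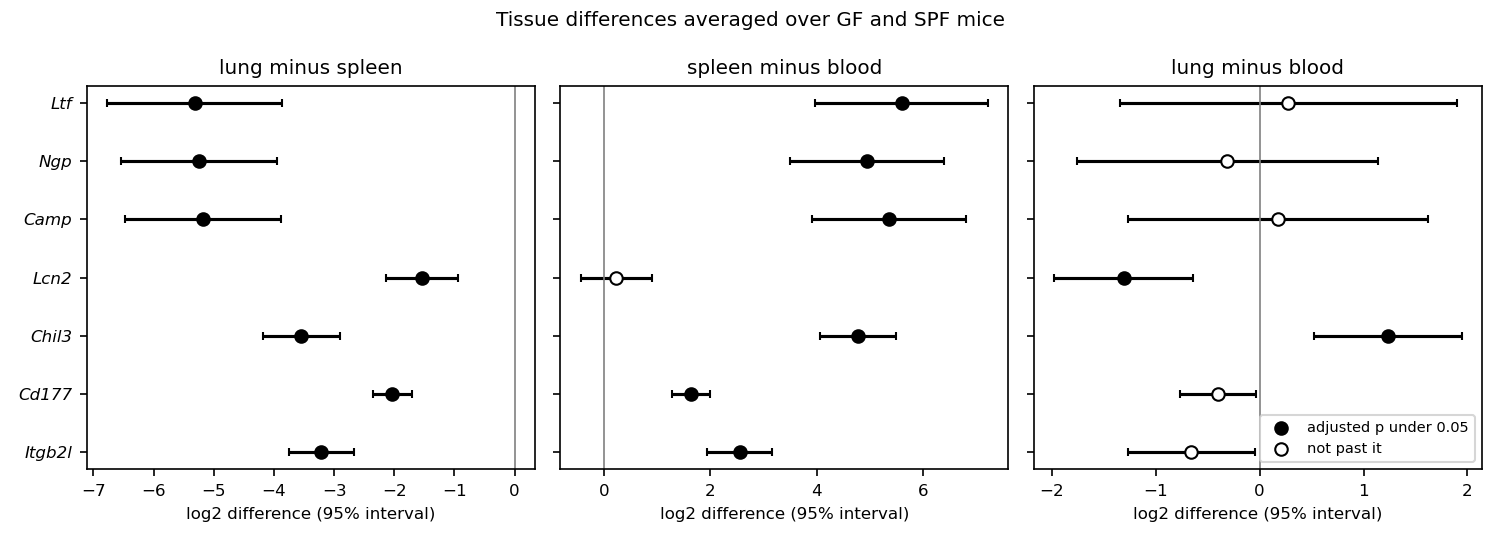
Log2 differences of the 7 genes with 95% intervals for lung minus spleen, spleen minus blood and lung minus blood, each averaged over GF and SPF mice, with filled points for an adjusted p under 0.05. Ltf, Ngp and Camp have the largest differences in the 2 comparisons with spleen but the smallest in lung minus blood. Their intervals are the widest of the 7 in each panel and those of Cd177 the narrowest.

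The size of the spleen excess sorted the genes into tiers. Mean normalised counts in spleen were 34.3-fold those in lung for Ltf, 33.3-fold for Ngp and 33.8-fold for Camp, 10.4-fold for Itgb2l and 10.2-fold for Chil3, and 4.28-fold for Cd177 and 3.25-fold for Lcn2. Levels of different genes were compared per kilobase of transcript. In spleen the median normalised count per kilobase was 4665 for Ngp, 2332 for Lcn2, 1424 for Ltf, 1181 for Camp, 1030 for Chil3, 310 for Cd177 and 54.8 for Itgb2l. In lung, on the same scale, Lcn2 led with 846, followed by Ngp with 173 and Cd177 with 83.5, while Ltf was at 43.6 and Camp at 29.7. In blood Lcn2 was again first, with 2264, and Ngp second, with 239.

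The 7 genes together took 0.112% to 0.225% of the reads of a lung library, 1.15% to 4.11% of a spleen library and 0.226% to 0.271% of a blood library. Ratios within a library, which do not depend on scaling between libraries, kept Ngp close to Ltf across a wide range of levels. Reads of Ngp were 1.15 to 1.90 times those of Ltf in all libraries except those of SPF blood, where the ratio was 6.95 in replicate 3 and 2.66 in replicate 4. Reads of Camp were 0.0893 to 0.440 times those of Ltf over the 16 libraries. By contrast the ratio of Ltf to Lcn2 reads was 0.0349 to 0.424 in lung, 1.44 to 2.77 in spleen and 0.00334 to 0.242 in blood, with no overlap between spleen and the other tissues.

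Libraries of one group also differed from each other, and the largest deviations were those of Ltf, Ngp and Camp in lung and in SPF blood. On the log2 scale Ltf deviated from its group mean by 1.303 in GF lung replicate 3 and by -1.55 in SPF lung replicate 3, Ngp by 1.24 and -1.59, and Camp by 1.45 and -0.68 in the same libraries. In SPF blood Ltf deviated by 1.61 in opposite directions in the 2 replicates. Cd177 stayed within 0.49 of its group means throughout. Over the 16 libraries, with group means removed, the correlation of a gene with the mean of the other 6 was 0.75 for Ltf, 0.86 for Ngp, 0.84 for Camp, 0.80 for Cd177, 0.60 for Itgb2l, 0.39 for Chil3 and 0.26 for Lcn2. These values describe points that share their library, depth and scaling.

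**Figure D3:**
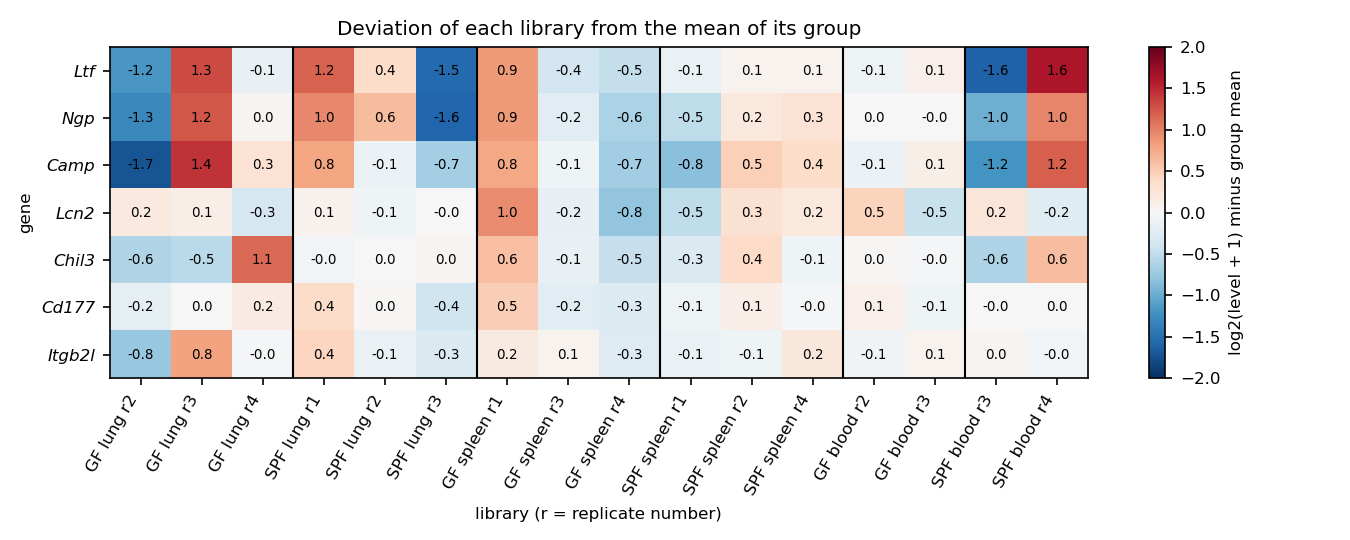
Deviation of each library from the mean of its group, in log2(level + 1), for the 7 genes (rows) and 16 libraries (columns), with red above and blue below the mean. Ltf, Ngp and Camp deviate in the same direction in GF lung replicates 2 and 3 and in SPF blood, and GF spleen replicate 1 is above its group mean for all 7 genes.

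The tissue differences were examined within GF and within SPF mice. Lung minus spleen was called lower for 7 of 7 genes in GF mice, where 2.14% of all genes were lower, and for 6 of 7 in SPF mice, where 1.99% were. The exception was Lcn2 in SPF mice (-1.25, adjusted p = 0.0695), and this depended on the setting: it passed with quantile normalization (-1.42, adjusted p = 0.00381), with array weights, with the replicate block, and without GF spleen replicate 1 or 4, GF blood replicate 2 or 3, or SPF spleen replicate 1. Without the 5 libraries under 250000 reads, which leaves 1 library each in GF spleen, SPF spleen and GF blood, Ltf (-5.02), Ngp (-5.12) and Camp (-5.25) no longer passed in GF mice. Nor did they in SPF mice, at -5.32, -5.37 and -5.50, where Lcn2 then passed (-1.56, adjusted p = 5.54e-05). Spleen minus blood was called higher for 4 of 7 genes in GF mice (0.47% of all genes) and for 6 of 7 in SPF mice (3.05%). In GF mice Ngp (4.79, adjusted p = 0.0442) passed while Ltf (4.65, adjusted p = 0.089) and Camp (4.28, adjusted p = 0.0714) did not, and which of the 3 passed changed between settings. In SPF mice Ltf (4.95), Ngp (4.12) and Camp (5.29) did not pass once SPF blood replicate 3 was left out. Lung minus blood gave 0 calls in GF mice, against 9.8% of all genes, with 3 of the 7 at an unadjusted p under 0.05 in limma (21.9% of all genes), and in SPF mice 1 gene, Lcn2 (-1.67, adjusted p = 0.0177), against 6.63% of all genes lower. This last call was lost without SPF blood replicate 3 (-1.42) or SPF lung replicate 2 (-1.63).

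Whether these tissue differences depended on the microbial status was tested by interaction terms. None of the 7 genes was called in limma for lung minus spleen (0.012% of all genes called), lung minus blood (0.012%) or spleen minus blood (0.759%), and 0 had an unadjusted p under 0.05, which 6.76%, 7.51% and 14.3% of all genes had in these 3 interactions. The intervals were wide. For Ltf the interaction for lung minus spleen was -0.15, with a 95% interval of -3.05 to 2.76. Other point estimates were further from 0. For lung minus blood Camp was at -2.46 (-5.35 to 0.43) and Ltf at -2.05 (-5.30 to 1.20). For spleen minus blood Camp was at -2.16 (-5.05 to 0.72) and Lcn2 at 1.31 (-0.03 to 2.65).

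GF and SPF neutrophils were then compared within each tissue. In lung 0 of the 7 genes were called (0.0241% of all genes), in spleen 0 (0.325%) and in blood 0 (1.33%). At an unadjusted p under 0.05 in limma there were 1 in lung (4% of all genes), 3 in spleen (12.4%) and 4 in blood (16.5%). The point estimates leaned one way in lung and in spleen. In lung all 7 were above 0, from 0.10 for Lcn2 to 1.48 for Chil3, against a median of 0.03 over all genes. Without GF lung replicate 3 those of Camp (-0.46) and Itgb2l (-0.19) turned sign. In spleen all 7 were above 0, with a range of 0.53 to 1.19 and a median of 1.03, against a median of 0.01 over all genes. All 3 GF spleen libraries lay above all 3 SPF spleen libraries for Ltf, Ngp, Chil3, Cd177 and Itgb2l, 5 of the 7, as for 6.04% of all genes. The difference was 0.82 for Cd177 (95% interval 0.37 to 1.28, adjusted p = 0.101) and 1.19 for Itgb2l (95% interval 0.42 to 1.97, adjusted p = 0.164). For Ltf it was 1.09, with an interval of -0.96 to 3.15. Without GF spleen replicate 1, the spleen library with the erythroid signal, the differences were all smaller, at 0.67 for Ltf, 0.60 for Ngp, 0.15 for Camp, 0.21 for Lcn2, 0.81 for Chil3, 0.58 for Cd177 and 1.11 for Itgb2l. Camp was at 0.12 and Lcn2 at 0.43 without SPF spleen replicate 1, and Camp was at -0.013 without the 5 libraries under 250000 reads. Without GF spleen replicate 4 Camp was at 0.88 and Lcn2 at 1.08.

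In blood 6 of the 7 genes had both GF libraries above both SPF libraries, as had 26.3% of all genes. The differences ran from -0.62 for Lcn2 to 2.99 for Ltf (95% interval 0.48 to 5.51, adjusted p = 0.229). They moved with single libraries: without SPF blood replicate 3 Ltf was at 1.40, Ngp at 0.35, Camp at 1.54 and Chil3 at 0.91, and without SPF blood replicate 4 Ltf was at 4.59. Lcn2 was at -0.17 without GF blood replicate 3 and at -1.07 without GF blood replicate 2. In lung Chil3 alone had no overlap, against 8.05% of all genes, and its difference of 1.48 (95% interval 0.58 to 2.38) had an adjusted p of 0.999. Across the tissues Chil3 was the member whose GF libraries all lay above the SPF libraries of the same tissue each time, by 1.48 in lung, 1.11 in spleen (adjusted p = 0.288) and 1.52 in blood (adjusted p = 0.155), none of which passed. The share of all genes with this in every tissue was not computed.

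Other proteins of specific granules were set beside the 7 genes to see how far the pattern extended. Of 10 such genes tested, 7 were lower in lung than in spleen and 3 did not pass, with a median difference of -0.54. Cybb, which encodes the gp91phox chain of the phagocyte oxidase, had the largest (-1.84, SE 0.20, adjusted p = 1.24e-08), followed by Olfm4, a glycoprotein of a neutrophil subset (-1.45, adjusted p = 0.00216), Lyz2, lysozyme (-0.85), Pglyrp1, a peptidoglycan-binding protein (-0.72), and Mmp8, neutrophil collagenase (-0.65). All 10 were nearer 0 than any of the 7 except that Cybb exceeded Lcn2. In spleen minus blood 3 of the 10 were higher, Cybb (1.97, adjusted p = 3.95e-07), Olfm4 (1.26, adjusted p = 0.0447) and the integrin chain gene Itgam (0.69), and 3 were lower, the protease inhibitor gene Slpi (-0.87), Cyba and Hp. The median was 0.01.

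**Figure D4:**
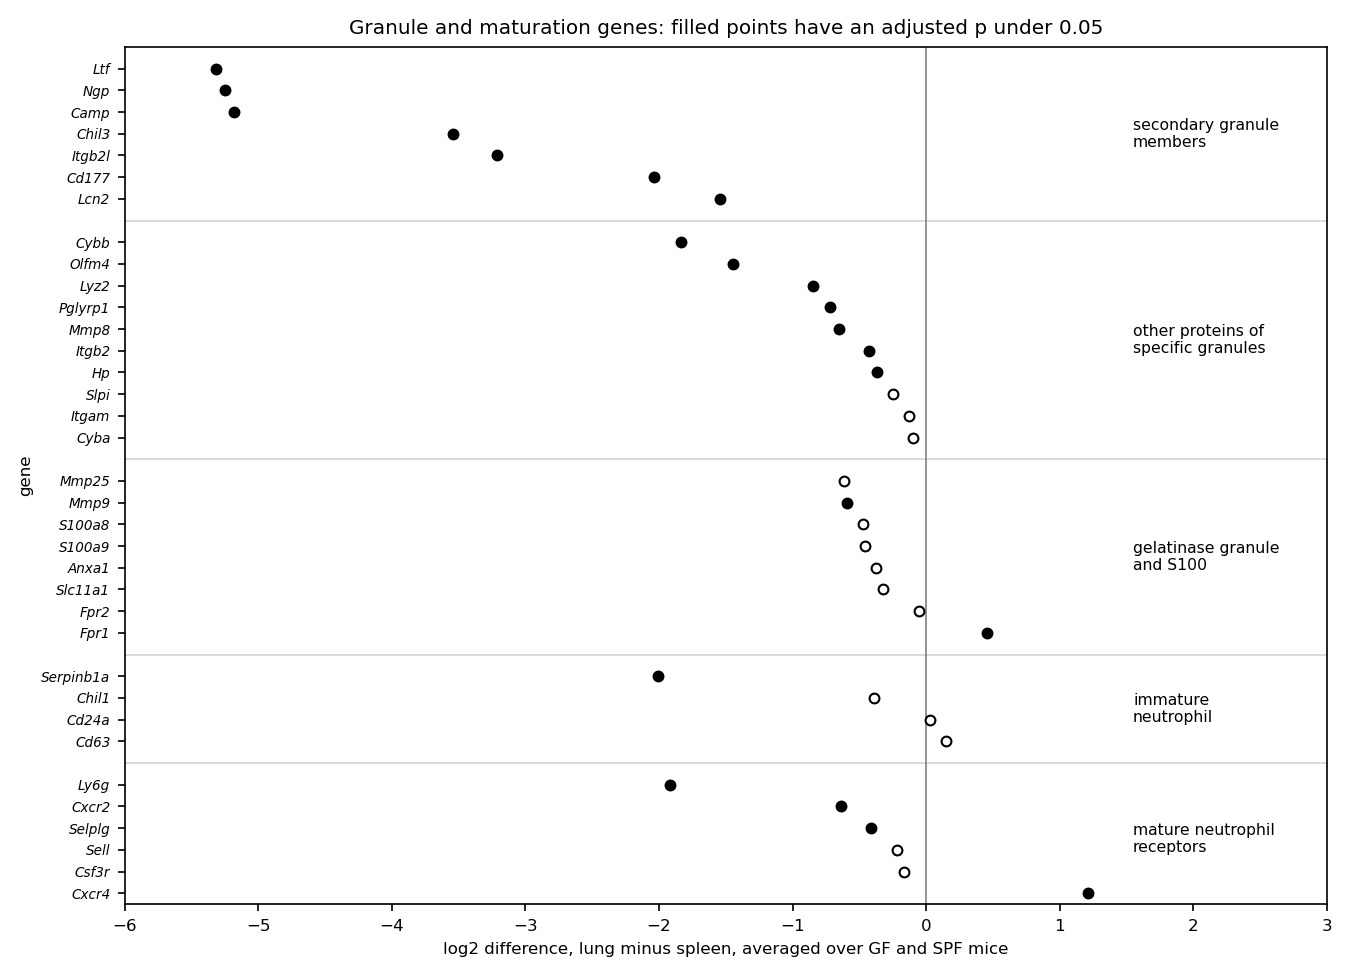
Log2 differences, lung minus spleen averaged over GF and SPF mice, for the 7 secondary granule genes and 4 other lists, 1 gene per row, with filled points for an adjusted p under 0.05. Ltf, Ngp and Camp lie near -5, and of the other genes Serpinb1a, Ly6g and Cybb lie nearest to -2.

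Of 8 gelatinase granule and S100 genes 1 was lower in lung than in spleen, Mmp9, which encodes gelatinase B (-0.59, adjusted p = 0.000959), and 1 higher, the formyl peptide receptor gene Fpr1 (0.46, adjusted p = 0.0233). Between spleen and blood the median of the 8 was -0.31. Of 7 azurophil granule genes the table listed Prss57, which did not pass (-1.01, adjusted p = 0.088). The transcription factor gene Cebpe, which drives the secondary granule program, was near the limit of detection, at 0 to 5.91 normalised counts in lung, 0 to 17.3 in spleen and 0 to 6.77 in blood. Of 6 cell cycle genes tested 1 was higher in lung, Stmn1 (2.83), and 1 lower, Top2a (-1.93), whose counts never exceeded 5 reads.

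Among genes of immature neutrophils 1 of 4 was called, Serpinb1a, an inhibitor of neutrophil serine proteases (-2.01, SE 0.26, adjusted p = 3.58e-07). Among receptors of mature neutrophils Ly6g, the gene of the antigen used for the sort, was lower in lung (-1.92, adjusted p = 0.000476), as were the chemokine receptor gene Cxcr2 (-0.64) and Selplg, while Cxcr4, the receptor for the marrow chemokine CXCL12, was higher (1.22, adjusted p = 3.99e-05). Of 5 tested partners of the member proteins, Pecam1, the binding partner of CD177, and Lrp1, a lactoferrin receptor, were higher in lung (3.71 and 3.38). Both are also expressed by endothelial and stromal cells, whose 3 tested markers were all higher in lung.

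Markers of other cells moved with the tissue comparisons. Lung epithelial markers summed to 2607 to 10893 normalised counts in lung libraries, 4.47 to 20.3 in spleen and 13.7 to 37.0 in blood, with 8 of 10 listed, and Sftpb, Sftpa1, Cdh1, Krt8 and Krt18 at 0 in every spleen library. Markers of splenic red pulp macrophages (8 of 8 listed) summed to 1332 to 1843 in lung, 1638 to 3110 in spleen and 1696 to 3001 in blood. These sums mainly follow Slc40a1, at 1187 to 1655 in lung, 1430 to 2866 in spleen and 1589 to 2834 in blood. Of 6 of these macrophage markers tested, 4 were higher in spleen than in blood. Among them were the adhesion molecule gene Vcam1 (3.89) and the complement gene C1qa (2.46), and C1qb was at 0 in all blood libraries. Monocyte markers (4 of 5 listed) summed to 695.5 to 859 in lung, 1044 to 1333 in spleen and 758 to 1311 in blood. Most of this was Csf1r and Ly6c2, and F13a1 was at 0 in every spleen library. Of 10 alveolar macrophage markers 2 were listed, Siglecf and Ear2, with sums of 51.3 to 95.4 in lung, 79.9 to 126 in spleen and 59.3 to 122 in blood. Erythroid and platelet markers (8 of 8 listed) had the sums given with the depths, and all 8 were lower in spleen than in blood (median -7.45) and lower in lung than in blood (median -6.74). B cell markers (4 of 4 listed) summed to 33.7 to 109 in lung, 0 to 46.9 in spleen and 4.06 to 11.4 in blood. All 4 were higher in lung than in blood (median 2.63), 2 were higher in spleen than in blood, and 2 were higher in lung than in spleen. The part of these cells in the differences of the 7 genes was not tested. A pair of libraries, GF spleen replicate 1 and SPF blood replicate 3, was left out after seeing the data. All 7 genes then kept their lung minus spleen calls and 6 their spleen minus blood calls with GF and SPF mice averaged. This removal does not test the part of other cells. It left the lung epithelial signal in place, and SPF blood replicate 3 had the lowest erythroid and platelet sum in blood (44267).

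The genes between Camp and Ltf were looked at for the same differences. The interval from Camp to Ltf holds 54 annotated genes, 31 of them protein coding. Besides Camp, Ngp and Ltf 11 were tested, with lung minus spleen differences of -0.78 to 2.05 (median 0.36). Of these 2 passed, both higher in lung, where 12.5% of all genes were called higher. Their spleen minus blood differences ran from -0.72 to 0.996 (median 0.43), all nearer 0 than that of Ltf, Ngp or Camp. In lung minus blood 5 of the 11 were called higher and 1 lower (median 1.04), against 16.5% and 8.11% of all genes.

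Genes with the pattern most like that of the 7 across the 16 libraries were ranked by correlation with the members' mean. The correlation used log2(value + 1), with the value at 0 reads left in. That value was higher in shallow libraries, most of them from spleen, so the ranks of genes with few reads depend in part on depth. Serpinb1a came first (r = 0.94), followed by Fcna, a ficolin gene (0.93), Adpgk, an ADP-dependent glucokinase (0.92), Cybb (0.91), the chitinase-like gene Chil5 (0.88), Lta4h, the last enzyme of leukotriene B4 synthesis (0.87), Top2a (0.84), Hvcn1, a proton channel of phagocytes (0.84), Kidins220 (0.83) and Slc17a9, a vesicular nucleotide transporter (0.83). With the group means removed the values were 0.73 for Adpgk, 0.67 for Lta4h, 0.66 for Serpinb1a, 0.55 for Chil5, 0.447 for Hvcn1 and 0.42 for Cybb. They were lower for Fcna (0.26), Kidins220 (0.245), Top2a (0.17) and Slc17a9 (0.13). Serpinb1a averaged 26.3 ± 5.59 normalised counts in lung (SD, n = 6), 120 ± 68.8 in spleen (SD, n = 6) and 19.6 ± 6.10 in blood (SD, n = 4). Adpgk averaged 11.95 ± 3.77 in lung, 65.7 ± 27.2 in spleen and 5.84 ± 2.40 in blood, with 1 to 37 reads per library. Fcna had 0 reads in every lung library and at most 13 in a spleen library. Chil5 never exceeded 11 reads in a library, Slc17a9 6 and Top2a 5.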

How the data were processed

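Gene expression was measured by RNA sequencing of 16 libraries of sorted neutrophils, with 61-base paired-end reads and a low-input amplification kit, per the labels' protocols. The submitters' processing notes name CASAVA, RSEM 1.3.1, limma and mm10; the annotation, the filter and the scaling between libraries are not given in the sources used here. The authors deposited 1 linear signal value per gene and library, with no unit in the header. Its low values step by reads with an offset of 0.5 reads, so levels in the text (normalised counts) are the deposited signal less its value at 0 reads, and reads were recovered by undoing the scaling. No strand-aware counting is stated. Counting error is the only error a read number shows.

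A gene was tested if 2 or more libraries reached a value of 10 (8299 kept, 1997 removed). Differences were fitted in limma 3.58.1 (R 4.3.3) on log2(value + 1), as 6 group means over all 16 libraries, with eBayes set to trended and robust. The added 1 shrinks changes of low genes. The values tested keep their value at 0 reads, which was 0.74 to 3.81 in spleen, 0.44 to 0.99 in lung and 0.196 to 3.70 in blood. Differences of genes with few reads, in either direction, therefore also depend on the depth of the libraries. Tests were two-sided, and p-values were adjusted by Benjamini-Hochberg over all genes within each of 15 comparisons, with 0.05 as the threshold. "Averaged" differences give GF and SPF mice equal weight. The fit was also run on simulated data with normal scatter and changes added in GF lung only. That run did not model the value at 0 reads, which differs between libraries, so it cannot vouch for the tissue differences. Alternatives were other pseudocounts, no filter, TMM and quantile rescaling, other priors and weights, a replicate block and left-out libraries; 1 of them, the joint removal of GF spleen replicate 1 and SPF blood replicate 3, was chosen after seeing the data. Symbols, lengths and coordinates came from GENCODE M21 (GRCm38), promoters from RefSeq (GRCm38.p6), where all 7 genes matched. The genes, lists and named-gene rule (members, list members that passed or that define a list, and the 10 protein-coding genes most correlated with the members' mean) were chosen with earlier results of these data known.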

Additional observations from a re-analysis of the deposited data

How the results depend on the processing

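Lung minus spleen gave 7 calls with GF and SPF mice averaged under every setting tried. Without the 5 libraries under 250000 reads, which leaves 1 library in each of 3 groups whose spread is then taken from the other groups, calls fell to 4 for lung minus spleen in GF mice and 4 in SPF mice (Ltf, Ngp and Camp lost, Lcn2 gained), 1 for lung minus blood averaged, 3 for spleen minus blood averaged, 2 for it in GF mice and 3 in SPF mice, and lung minus blood in GF mice gained 1. TMM rescaling gave 4 calls for lung minus blood averaged. Without GF spleen replicate 1 and SPF blood replicate 3, lung minus blood gave 1 call in GF mice and spleen minus blood 3 in SPF mice. Leaving out 1 library at a time, calls ranged from 6 to 7 for lung minus spleen in SPF mice, 1 to 3 for lung minus blood averaged, 0 to 1 in GF mice and 0 to 2 in SPF mice, 3 to 6 for spleen minus blood in GF mice and 3 to 6 in SPF mice, and 0 to 1 for GF minus SPF in blood. It was 7 to 7 for lung minus spleen averaged and in GF mice, 6 to 6 for spleen minus blood averaged, and 0 to 0 for GF minus SPF in lung and spleen and for the interactions. Signs turned, all without a call, for Ltf (-0.52) and Camp (-0.40) in lung minus blood averaged and Ltf in SPF mice (-0.30) without the pair of libraries, for Camp in lung minus blood averaged (-0.24) and Lcn2 in spleen minus blood in SPF mice (0.058) after quantile normalization, and for Camp in GF minus SPF spleen (-0.013) without the shallow libraries. Leaving out libraries, the range crossed 0 in lung minus blood averaged for Ltf (-0.52 to 1.08), Ngp (-0.80 to 0.18) and Camp (-0.40 to 0.76), in GF mice for Ngp (-1.18 to 0.087), in SPF mice for Ltf (-0.30 to 2.90) and Ngp (-1.04 to 0.91), in spleen minus blood averaged for Lcn2 (-0.0039 to 0.46), and in GF minus SPF lung for Camp (-0.46 to 1.07) and Itgb2l (-0.19 to 0.55). The cause was not tested. Of all differences of single genes under alternatives, 2091 kept direction and call, 40 lost and 30 gained a call, and 23 turned sign.

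Of the genes called between lung and spleen 72.5% were higher in lung, against 62.3% under TMM and 47.8% under quantile rescaling. The median of all genes was 0.09, against -0.02 and -0.13, and all 7 genes were called lower each time. For lung minus blood these shares were 67.1%, 52.5% and 48.4%, and for spleen minus blood, of genes higher in spleen, 45.6%, 36.3% and 55.2%. Deviations from group means were little correlated between libraries of equal replicate number. Over 9 pairs of tissues of one status the correlation was -0.13 to 0.07, and over 5 pairs of GF and SPF in one tissue -0.08 to 0.03. Groups held 2 or 3 libraries and the shallowest library 104213 reads, so this cannot tell whether such libraries came from the same mice. With the replicate block the averaged counts were 7, 6 and 2 calls as before. Spleen minus blood in GF mice had 4 calls, with Ltf gained (3.86) and Ngp lost (3.99). In SPF mice it had 5, with Ngp lost (4.06), and lung minus spleen in SPF mice had 7, with Lcn2 gained (-1.30). A test on recovered read numbers was not run, because low values were not whole reads often enough in 8 of 16 libraries. Shallow spleen libraries limit the low genes most, with Itgb2l at 11 reads and Camp at 49 in SPF spleen replicate 1.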

Other observations

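Pglyrp1, Itgam, Csf1r and Ly6c2 were the genes of the marker and granule lists called between GF and SPF neutrophils in blood. Of all genes 1.33% were called there. Each status had 2 blood libraries, and GF blood replicate 3 held 132798 reads. The peptidoglycan-binding granule gene Pglyrp1 was lower in GF mice (-1.05, adjusted p = 0.0282) while Ltf, Ngp and Camp of the same granules had positive differences there that did not pass. The integrin gene Itgam (1.26, adjusted p = 0.0121) and the monocyte receptor gene Csf1r (0.94, adjusted p = 0.042) were higher, and Ly6c2, a surface antigen gene of monocytes and neutrophils, was lower (-1.50, adjusted p = 0.0258).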
